A study of Mus musculus with 6 samples.

Results

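The genes described here are 10 markers of astrocytes, the star-shaped support cells of the brain, measured in cultures prepared as microglia: Gfap, Aqp4, Gja1, Slc1a2, Slc1a3, Aldoc, S100b, Fabp7, Aldh1l1 and Glul. They were chosen by name, not by their values, and all probe sets whose platform annotation gives a single gene symbol among them were taken. This found 32 probe sets for 10 genes, of 45101 probe sets on the array and 18193 genes with a single-symbol probe set. RNA of 6 primary mouse microglial cultures was hybridised to single-colour oligonucleotide arrays, 1 array per sample. The comparison is between 3 Dap12-deficient cultures, labelled Dap12-ko, and 3 wild-type cultures, and asks how the loss of this adaptor changes the transcripts of cultured microglia. Dap12, encoded by Tyrobp, is the ITAM-bearing adaptor of receptors such as Trem2 on myeloid cells. The labels name no strain, age, sex, deleted segment, culture method or agent, and nothing in them tells separate animals from repeat cultures, so p-values reflect the spread between these cultures, which may be technical. Cultures are numbered 1 to 3 within a group in order of deposit, and the numbers pair nothing. The titles of wild-type samples 1 and 3 and of Dap12-deficient samples 1 and 2 carry 2 joined numbers and those of the other 2 samples a single one. Their meaning is not stated, so a culture here means a sample, which may pool several.

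Astrocytes carry intermediate filaments of glial fibrillary acidic protein (Gfap) and are joined to each other by gap junctions built largely of connexin 43 (Gja1). Their endfeet around vessels hold the water channel aquaporin 4 (Aqp4). They clear synaptic glutamate through the transporters GLT-1 (Slc1a2) and GLAST (Slc1a3) and turn it into glutamine with glutamine synthetase (Glul). Primary microglia are commonly grown on or shaken off mixed glial layers in which astrocytes are abundant, so RNA of astrocytes can be present in such cultures. Not every marker is exclusive: S100b and Glul are also made by oligodendrocytes, and Fabp7 by neural progenitors and oligodendrocyte precursors. In RNA of a whole culture, a lower number of cells of a type and less RNA per cell cannot be told apart.

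The signals are linear and scaled to a common trimmed mean, with median signals between 11.9 and 16.5. The targeted gene Tyrobp gave 5396 to 7271 in wild-type and 96.2 to 125 in Dap12-deficient cultures (log2 difference -5.64, SE 0.20, limma adjusted p = 8.14e-07). The sources used here do not place its probes relative to the deleted part. Of the microglial markers, 2 were bright on every array. Csf1r, the receptor that microglia need to survive, gave 5439 to 9522 and the complement gene C1qa 3083 to 6149. The other tested microglial markers were dimmer: Aif1 gave 1611 to 2681, Cx3cr1 197 to 1571, P2ry12 287 to 543, Tmem119 257 to 516 and Itgam 86.7 to 185. The brightest probe set of each of the 10 astrocyte genes had a mean at or above the minimum for testing in both groups. Dap12-deficient cultures 2 and 3 stood apart from each other for many glial genes.

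The promoters of 4 of the genes are shown because these genes stand for the patterns described below: Gfap and Gja1 followed each other from array to array, Slc1a3 had the most probe sets whose arrays lay apart between the groups, and S100b differed in the opposite direction. Each stretch runs from 250 bases before to 10 bases after the annotated start, from RefSeq on the build GRCm38.p6, read 5′ to 3′ on the strand of the gene. Capitals mark matches on either strand to TTCNNNGAA, the letters of a STAT site, or to TGANTCA, those of an AP-1 site.
Gfap promoter, chr11:102897191-102897450, minus strand: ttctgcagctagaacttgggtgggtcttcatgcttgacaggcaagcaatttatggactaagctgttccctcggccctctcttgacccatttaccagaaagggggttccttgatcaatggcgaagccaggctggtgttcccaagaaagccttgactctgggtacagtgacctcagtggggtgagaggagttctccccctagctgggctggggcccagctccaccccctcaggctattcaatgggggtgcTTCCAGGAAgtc
Gja1 promoter, chr10:56377050-56377309, plus strand: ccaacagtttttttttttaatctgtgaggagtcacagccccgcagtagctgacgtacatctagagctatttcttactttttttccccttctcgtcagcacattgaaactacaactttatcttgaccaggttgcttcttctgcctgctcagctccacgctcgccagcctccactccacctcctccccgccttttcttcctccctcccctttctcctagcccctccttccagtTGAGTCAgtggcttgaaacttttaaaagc
Slc1a3 promoter, chr15:8710798-8711057, minus strand: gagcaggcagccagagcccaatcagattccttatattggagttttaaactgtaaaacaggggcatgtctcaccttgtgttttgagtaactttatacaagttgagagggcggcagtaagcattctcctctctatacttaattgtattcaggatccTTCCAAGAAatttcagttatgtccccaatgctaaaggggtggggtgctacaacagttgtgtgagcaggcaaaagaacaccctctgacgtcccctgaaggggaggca
S100b promoter, chr10:76253586-76253845, plus strand: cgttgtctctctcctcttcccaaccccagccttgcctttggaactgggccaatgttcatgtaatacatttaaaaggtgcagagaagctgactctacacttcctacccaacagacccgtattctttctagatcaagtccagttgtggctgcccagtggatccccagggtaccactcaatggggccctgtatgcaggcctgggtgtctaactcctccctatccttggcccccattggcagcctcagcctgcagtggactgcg
Of the 10 genes, 9 had an entry in the promoter table, all but Aqp4, and Aldoc had 2 starts. Of the 10 windows of 300 bases around these starts, 3 held the STAT letters, against 8.3% of 32851 promoter windows of this length. They were those of Gfap, Slc1a3 and 1 of the 2 starts of Aldoc. In Gfap the match begins 2 bases before the start and in Slc1a3 96 bases before it. The AP-1 letters were found in 1 of the 10 windows, that of Gja1, with the match beginning 19 bases before the start, against 7.81% of windows. S100b held neither. Matches of the 2 motifs did not overlap. A match is a run of letters and was not measured as a binding site.

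No probe set of the 10 genes passed the threshold between Dap12-deficient and wild-type cultures, although the signals of 8 of the 10 genes were higher on average in the absence of Dap12. Of 32 probe sets, 23 had a mean signal at or above the 40th percentile of the array (8.51) and were tested. With limma, 0 of 23 passed a Benjamini-Hochberg adjusted p under 0.05, against 0.0074% of 27022 probe sets tested. At an unadjusted p under 0.05, 7 of the 23 were higher and 2 lower, against 7.05% and 3.61% of all tested probe sets. Of these 7, 5 belong to Slc1a3 and are not independent of each other, and 3 reached the signal minimum only through the Dap12-deficient arrays, so nothing is read from this count. Taking the brightest probe set of each gene, the median log2 difference over the 10 genes was 0.36, against -0.03 over all 12875 genes, of which 45.2% were higher. Differences here are of log2(signal + 16), Dap12-deficient minus wild-type, a scale that understates those of dim genes. A shift of every array to a common median moved the median of all genes from -0.03 to -0.15 and that of the 10 genes from 0.36 to 0.24, and none of the 10 changed direction under this or the other scalings run. Arrays of the groups did not overlap for Slc1a2 and Slc1a3, both higher in Dap12-deficient cultures, or 2 of 10 genes against 7.54% of all genes. For 0 of 10 they lay apart in the lower direction, against 8.85%.

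**Figure D1:**
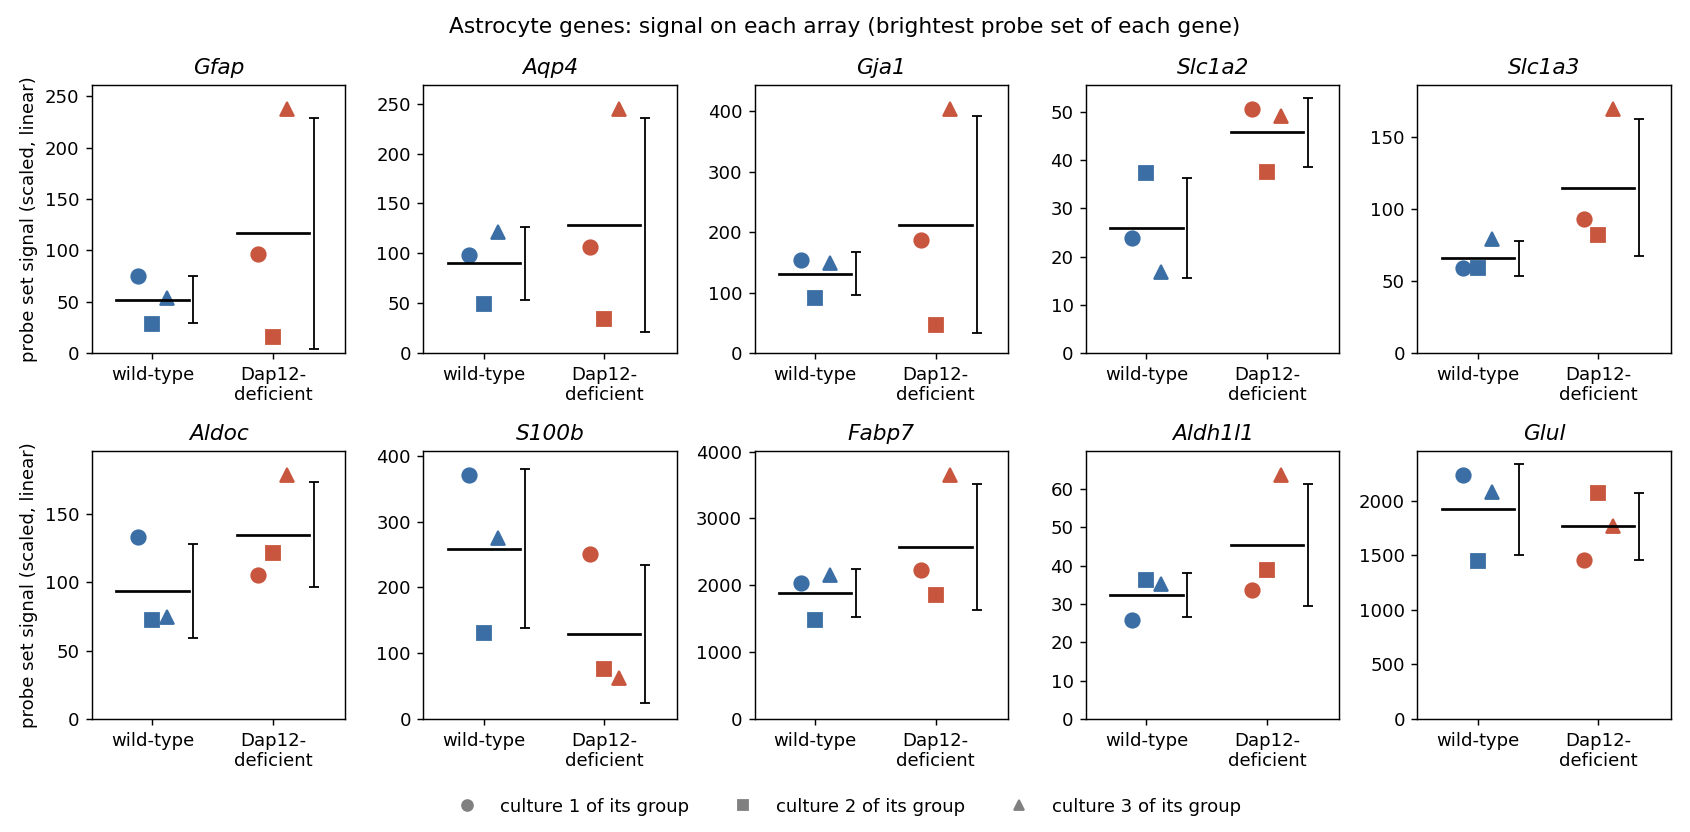
Scaled linear signal of the brightest probe set of each astrocyte gene, with 1 point per array, 3 wild-type (blue) and 3 Dap12-deficient (red); horizontal lines are group means and bars beside them ± 1 SD (n = 3). Dap12-deficient culture 3 (triangle) is the highest point for 7 of the 10 genes, while for Gfap, Aqp4 and Gja1 Dap12-deficient culture 2 (square) is the lowest.

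The filament, water channel and gap junction genes had the widest spread among Dap12-deficient cultures. The brightest probe set of Gfap gave signals of 74.7, 28.5 and 53.2 on wild-type arrays 1, 2 and 3, against 96.7, 15.3 and 237 on the same numbers of the Dap12-deficient arrays. The lowest and the highest value thus both came from Dap12-deficient cultures, 15.5-fold apart, with wild-type cultures between them. Limma gave a log2 difference of 0.56, SE 0.60, with an adjusted p of 0.765. A dimmer Gfap probe set gave 4.87, 2.21 and 7.74 against 14.1, 8.09 and 20.8, so that its arrays did not overlap (log2 difference 0.52, SE 0.21, limma adjusted p = 0.425). This probe set was at or above the signal minimum only through the Dap12-deficient arrays, and its values are near the dim end of the array.

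Aqp4 had the same order of arrays at both ends. Its brightest probe set gave 98.7, 49.4 and 122 in the wild-type cultures against 107, 33.9 and 244 in the Dap12-deficient ones, a log2 difference of 0.21 with an SE of 0.50 (limma adjusted p = 0.908). The groups overlapped, and Dap12-deficient cultures 3 and 2 were 7.21-fold apart. A second probe set gave 8.91, 7.20 and 6.48 against 28.9, 4.01 and 43.2 (log2 difference 0.68, SE 0.34). The dimmest gave values between 0.879 and 15.7, with the highest on a wild-type array, and a log2 difference of 0.17 (SE 0.24). All 3 probe sets of Aqp4 were thus higher on average, but by unlike amounts. The second had a wild-type mean of 7.53 and reached the signal minimum only through the Dap12-deficient arrays, so nothing is read from its direction.

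Gja1 had 6 probe sets, of which 5 were tested and all 5 were higher on average, with log2 differences between 0.27 and 0.68 and limma adjusted p from 0.607 upwards. The brightest gave 154, 90.8 and 150 in the wild-type cultures against 187, 46.4 and 403 in the Dap12-deficient ones (log2 difference 0.27, SE 0.54). On each of the 5, Dap12-deficient culture 3 was the highest and culture 2 the lowest array, so the groups overlapped throughout. Of the 5, 4 are of a kind (IDs ending in _x_at) whose probes can bind several transcripts. The tested one without that mark gave 78.4, 61.8 and 120 against 191, 25.6 and 254 (log2 difference 0.41, SE 0.57).

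By their brightest probe sets, the glutamate transporters were the members whose groups lay apart. For Slc1a3, which encodes GLAST, the brightest probe set gave 58.9, 58.8 and 79.5 in the wild-type cultures against 93.4, 81.8 and 169 in the Dap12-deficient ones. All Dap12-deficient arrays were above all wild-type arrays, though the gap between 79.5 and 81.8 is small. Limma gave a log2 difference of 0.63, SE 0.26, with an adjusted p of 0.436, and the mean signals were 65.8 ± 11.9 (SD, n = 3) and 115 ± 47.6 (SD, n = 3). All 5 tested probe sets of Slc1a3 were higher, with log2 differences from 0.46 to 1.33. The largest had 12.6, 41.1 and 29.9 against 91.2, 34.1 and 205, where the groups overlapped (SE 0.46). It is of the kind (ID ending in _x_at) whose probes can bind several transcripts. The next gave 4.37, 28.7 and 41.7 against 73.8, 46.9 and 104 without overlap (log2 difference 1.23, SE 0.37). The smallest adjusted p of any astrocyte probe set, 0.321 in limma, came from a dim Slc1a3 probe set with 0.437, 4.84 and 0.657 against 21.8, 19.0 and 7.91 (log2 difference 0.82, SE 0.22). That probe set and the dimmest tested one of Slc1a3 reached the signal minimum only through the Dap12-deficient arrays, so nothing is read from their direction. A further Slc1a3 probe set was too dim for the test and gave 3.18, 9.53 and 0.332 against 4.44, 4.97 and 2.86. Over all 23 tested probe sets, 4 had a wild-type mean below the minimum and 0 a Dap12-deficient mean below it.

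Slc1a2, which encodes GLT-1, the main glutamate transporter of mature astrocytes, gave 23.9, 37.3 and 16.9 in the wild-type cultures against 50.6, 37.6 and 49.2 in the Dap12-deficient ones. The groups met at wild-type culture 2 and Dap12-deficient culture 2, with 37.3 and 37.6, so the lack of overlap is marginal. Limma gave a log2 difference of 0.58, SE 0.22, with an adjusted p of 0.408. The other 4 probe sets of Slc1a2 were too dim for the test, with values between 0.553 and 12.4.

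Glul, the glutamine synthetase gene that handles the glutamate taken up, did not share this direction. Its brightest probe set gave 2233, 1448 and 2084 in the wild-type cultures against 1460, 2072 and 1765 in the Dap12-deficient ones, with overlapping groups and a log2 difference of -0.11 with an SE of 0.22 (limma adjusted p = 0.883). The second probe set gave 389, 484 and 410 against 258, 282 and 280. There all Dap12-deficient arrays lay below all wild-type arrays (log2 difference -0.61, SE 0.18, limma adjusted p = 0.337), the only tested astrocyte probe set separated in this direction, 1 of 23 against 6.89% of all tested probe sets. In the other direction 6 of 23 were separated, against 9.6%, but 4 of the 6 belong to Slc1a3 and 3 had wild-type means below the minimum, so nothing is read from this count either. The 2 probe sets of Glul thus disagree in size, and neither passed.

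**Figure D2:**
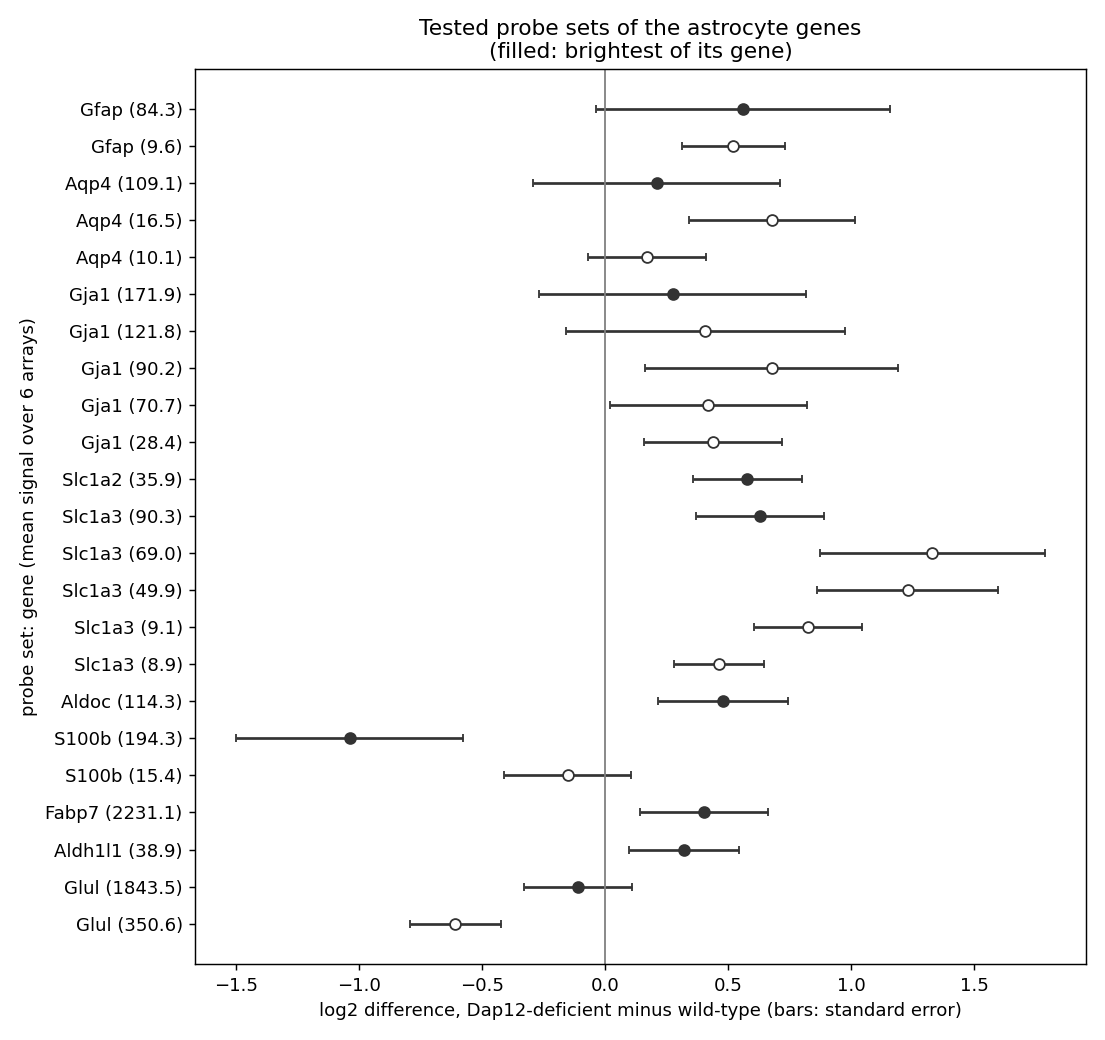
Log2 difference of log2(signal + 16), Dap12-deficient minus wild-type, for the 23 tested probe sets of the astrocyte genes, with bars of 1 SE from limma; filled points are the brightest probe set of a gene and the number beside each name is its mean signal over 6 arrays. Of the 23, 19 lie above 0, and those of S100b and Glul lie below it. Nothing is read from this count: probe sets of the same gene are not independent. Of the 23, 4 had a wild-type mean below the signal minimum and 0 a Dap12-deficient mean below it.

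Metabolic and fatty acid binding genes were higher on average by small amounts. Aldoc, the brain form of the glycolytic enzyme aldolase, gave 133, 72.8 and 74.5 in the wild-type cultures against 106, 121 and 178 in the Dap12-deficient ones (log2 difference 0.48, SE 0.26, limma adjusted p = 0.552). Wild-type culture 1 was above 2 of the Dap12-deficient cultures. Aldh1l1, a folate enzyme used as a marker of astrocytes of all regions, gave 25.7, 36.3 and 35.1 against 33.7, 38.9 and 63.5 (log2 difference 0.32, SE 0.22, limma adjusted p = 0.634). Fabp7, the brain lipid binding protein of radial glia and immature astrocytes, had a single probe set with 2039, 1476 and 2148 against 2225, 1853 and 3646 (log2 difference 0.40, SE 0.26, limma adjusted p = 0.610). In each of these 3 genes the groups overlapped and Dap12-deficient culture 3 was the highest array. With each array left out in turn the log2 difference ranged from 0.28 to 0.72 for Aldoc, from 0.12 to 0.46 for Aldh1l1 and from 0.12 to 0.61 for Fabp7, each lowest without that culture.

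S100b, a calcium-binding protein, was the astrocyte marker with the largest mean difference downwards, and its arrays were ordered unlike those of Gfap. The brightest probe set gave 371, 131 and 276 in the wild-type cultures against 250, 75.7 and 62.2 in the Dap12-deficient ones, a log2 difference of -1.04 with an SE of 0.46 (limma adjusted p = 0.463). Dap12-deficient culture 3, the highest array for Gfap, was the lowest for S100b. The groups overlapped, since Dap12-deficient culture 1 lay above wild-type culture 2. A dimmer probe set gave 21.6, 10.8 and 17.3 against 26.2, 5.88 and 10.5 (log2 difference -0.15, SE 0.26). Mbp, the myelin basic protein gene of oligodendrocytes, gave 5535, 3839 and 5283 against 4714, 1142 and 358 by its brightest probe set, with the same array lowest. The part of oligodendrocyte RNA in the S100b values was not tested.

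Across arrays, the mean of the astrocyte genes was highest on Dap12-deficient array 3 and similarly low on Dap12-deficient array 2 and wild-type array 2. After centring each gene on its mean over 6 arrays, the mean of the 10 genes was 0.63 on Dap12-deficient array 3, 0.17 on array 1 and -0.46 on array 2, while wild-type arrays 1, 2 and 3 had 0.08, -0.42 and -0.01. Dap12-deficient array 3 was the highest for 7 of 10 genes, where 20.5% of all genes had their highest value there. The lowest value fell on wild-type array 2 for 4 genes and on Dap12-deficient array 2 for 3, against 12.6% and 12.5% of all genes. Relative to the wild-type mean, Dap12-deficient array 3 held 4.55 times the Gfap signal, 3.07 times that of Gja1 and 2.72 times that of Aqp4. For Slc1a3, Aldh1l1, Fabp7, Aldoc and Slc1a2 the ratio lay between 1.89 and 2.58. Dap12-deficient array 2 held 0.294 times the wild-type mean of Gfap, 0.353 of Gja1 and 0.377 of Aqp4, but 1.44 times that of Slc1a2 and 1.24 of Slc1a3. Low Gfap, Gja1 and Aqp4 signals therefore stood beside transporter signals at or above the wild-type mean in the same culture. Described over the 6 arrays, which share their scaling and groups, Pearson's r of the log2 signal with that of Gfap was 0.99 for Gja1, 0.95 for Aqp4, 0.89 for Fabp7 and 0.74 for Slc1a3. It was 0.33 for Slc1a2, -0.02 for S100b and -0.13 for Glul.

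**Figure D3:**
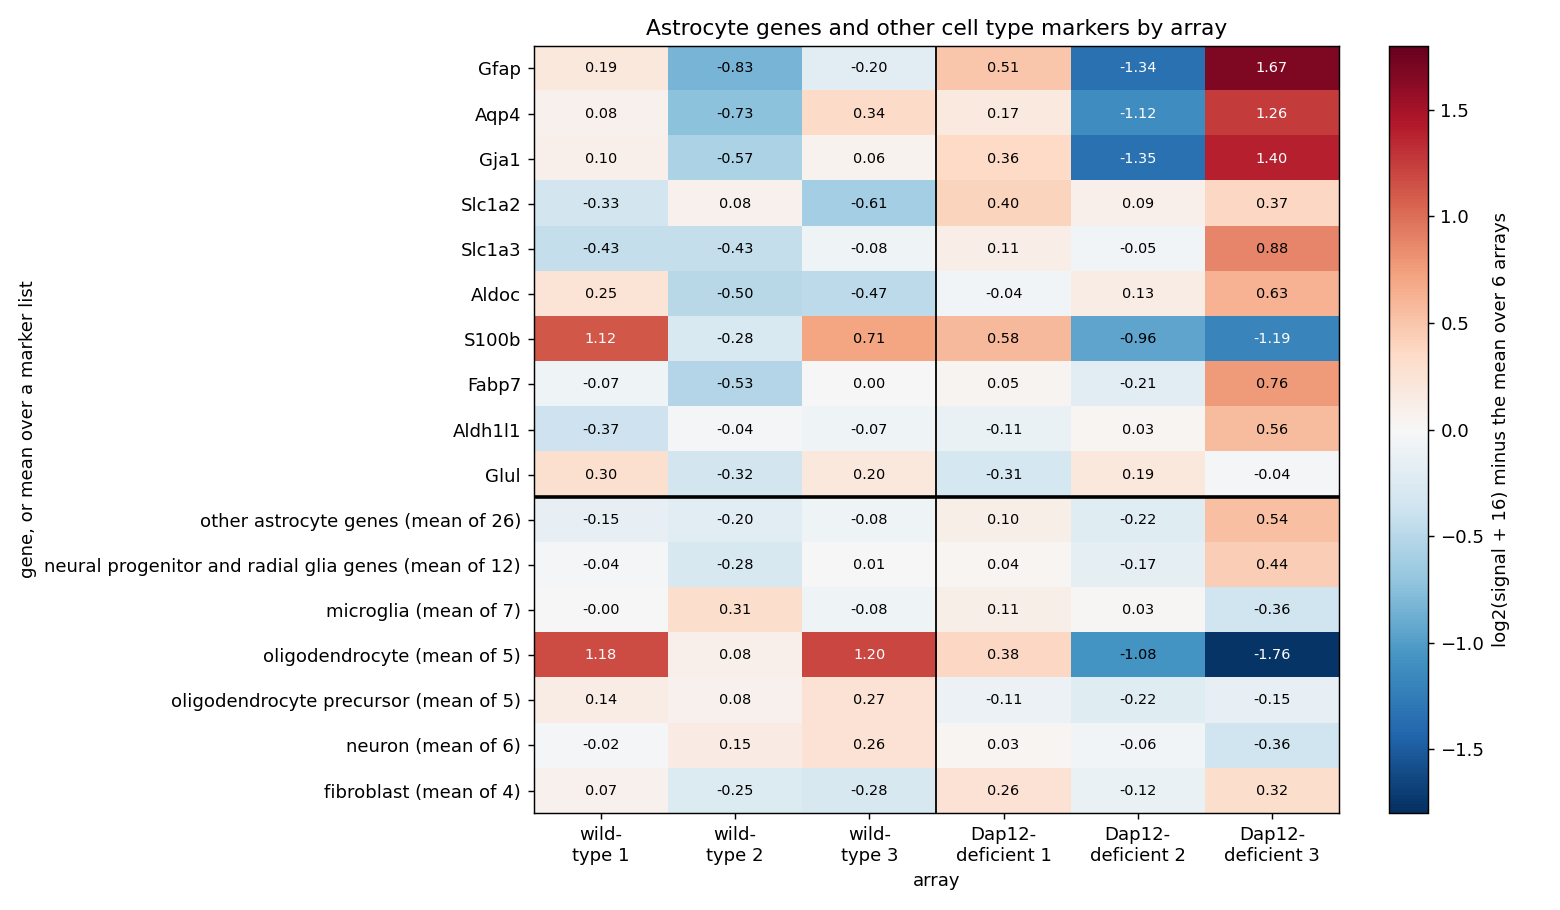
Colour and printed value give log2(signal + 16) minus its mean over 6 arrays, for each astrocyte gene (above the line) and as the mean over tested genes of marker lists (below it), by array. Gfap, Aqp4 and Gja1 lie between -1.35 and -1.12 on Dap12-deficient array 2 and between 1.26 and 1.67 on array 3, where the oligodendrocyte mean is -1.76.

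Further genes known from astrocytes, from a list of 30, had signals that were mostly higher as well, and none passed. Of 26 tested, 20 were higher and 6 lower, with a median log2 difference of 0.24 against -0.03 over all genes. That median was 0.52 without Dap12-deficient culture 2 and 0.13 without culture 3. Slc7a10, among the higher genes, had a wild-type mean below the signal minimum (7.78). Ntsr2, among the lower genes, had a Dap12-deficient mean below it (7.70). At an unadjusted p under 0.05 there were 4 higher and 1 lower, against 4.76% and 4.87% of all genes. Sparcl1, a secreted matrix protein, gave 64.5, 99.9 and 89.0 in the wild-type cultures against 219, 150 and 257 in the Dap12-deficient ones, without overlap (log2 difference 1.15, SE 0.24, limma adjusted p = 0.280). Acsbg1, an acyl-CoA synthetase, gave 17.2, 21.3 and 18.9 against 36.5, 36.0 and 76.6 (log2 difference 0.85, SE 0.24, limma adjusted p = 0.335). Hepacam, an adhesion molecule of astrocyte junctions, gave 2.39, 14.3 and 18.4 against 53.7, 20.1 and 48.9 (log2 difference 1.03, SE 0.30), again without overlap. Ppp1r3c, a glycogen-targeting subunit of protein phosphatase 1, had 1.03 (SE 0.40) with overlapping groups. Dap12-deficient array 3 was the highest for 15 of the 26, against 20.5% of all genes.

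Other genes of glutamate handling lay on both sides of 0. Of 10 tested genes of this list, 5 were higher and 5 lower, with a median of 0.00 and none at an unadjusted p under 0.05. The neutral amino acid transporter Slc1a4 had a log2 difference of 0.40 (SE 0.23), the mitochondrial aspartate aminotransferase Got2 -0.28 (SE 0.20), the neuronal glutamate transporter Slc1a1 -0.29 (SE 0.23) and the glutamine transporter Slc38a1 0.20 (SE 0.20). Genes of water and potassium handling had 4 of 9 higher and a median of -0.06, or 0.23 without wild-type culture 3, with Hepacam as above and the matrix protein Agrn at 0.28 (SE 0.20). Of 12 genes of neural progenitors and radial glia, 10 were higher, with a median of 0.23 that was 0.036 without wild-type culture 2, 0.041 without Dap12-deficient culture 3 and 0.38 without Dap12-deficient culture 2. Hopx gave 110, 166 and 148 against 200, 255 and 316 without overlap (log2 difference 0.79, SE 0.23, limma adjusted p = 0.335), and the Notch target Hes5 had 0.41 (SE 0.24).

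Markers of other cell types differed between the same arrays. Of 5 tested oligodendrocyte markers 5 were lower, with a median of -1.88 (-1.05 without Dap12-deficient culture 3). Of these 5, 4 were lowest on Dap12-deficient array 3, against 20.7% of all genes. Their summed signals ranged from 4926 to 7892 in wild-type and from 1310 to 5737 in Dap12-deficient cultures. The myelin genes Mog and Mobp had log2 differences of -1.88 (SE 0.49) and -2.34 (SE 0.76). Of 7 microglial markers 6 were lower, with a median of -0.29 (-0.095 without Dap12-deficient culture 3 and -0.19 without wild-type culture 3). Of these 7, 5 were lowest on Dap12-deficient array 3, against 20.7% of all genes. Their summed signals were 14289 to 20053 and 11627 to 17678, with C1qa at -0.46 (SE 0.25) and Aif1 at -0.36 (SE 0.21). Cx3cr1 went the other way, at 0.72 (SE 0.56) with its highest value on Dap12-deficient array 1, and Csf1r had -0.05 (SE 0.22). Of 5 oligodendrocyte precursor markers 2 were higher and 3 lower, with a median of -0.06, Cspg4 at -1.51 (SE 0.18, limma adjusted p = 0.0613) and Sox10 at -0.18 (SE 0.19). Of 6 neuron markers 4 were lower, with log2 differences of -0.64 (SE 0.21) for the tubulin gene Tubb3 and -0.62 (SE 0.23) for Gad1, an enzyme of GABA synthesis. Fibroblast markers were dim, with sums of 56.9 to 95.5 and 72.9 to 121, and Col3a1 at 0.49 (SE 0.24) and Col1a1 at 0.25 (SE 0.19). Col1a1 had a wild-type mean of 6.63, below the signal minimum, so nothing is read from its direction. Of the endothelial markers 2 were tested, Flt1 at -0.77 (SE 0.22) and Kdr at 0.48 (SE 0.23). None of these genes passed the threshold, and the part of a changed mixture of cells in the astrocyte values was not tested.

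Genes outside the list with the most similar array profiles were taken from 7996 genes of at least median signal, by the mean absolute difference of centred log2 values over 6 arrays. For the mean profile of the 10 genes the closest were Plce1 (0.07), Dnajc1 (0.07), Scrn1 (0.07), Cachd1 (0.08), Gprc5b (0.09), Pfkp (0.10), Npas3 (0.10) and Rpgr (0.10), with these differences in log2 units. For Gfap they were Tmem47 (0.14), the sphingosine phosphate receptor gene S1pr3 (0.16) and Vasn (0.20). S1pr3 was on the list, described below, of genes that astrocytes raise when they react to injury. Tmem47 gave 180, 88.9 and 120 in the wild-type cultures against 235, 70.6 and 467 in the Dap12-deficient ones. For Aqp4 they were Prss23 (0.12), the collagen receptor gene Ddr1 (0.15) and Slc39a12 (0.15), a zinc transporter gene that was on the list of further astrocyte genes.

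By their brightest probe sets, the filament, channel and junction genes changed direction when a single array was left out, while the transporters did not. Without Dap12-deficient culture 3 the log2 difference turned to -0.14 for Gfap, -0.37 for Aqp4 and -0.36 for Gja1. It was 0.54 for Slc1a2 and 0.35 for Slc1a3, and Aldoc (0.28), Fabp7 (0.12) and Aldh1l1 (0.12) also stayed above 0. Dimmer tested probe sets had 0.35 and 0.10 for Aqp4, and -0.11, 0.15, -0.023 and 0.16 for Gja1. Without Dap12-deficient culture 2 the brightest probe sets had 1.37 for Gfap, 0.82 for Aqp4 and 1.02 for Gja1. In that fit 1 of 21 tested astrocyte probe sets passed the threshold, against 0.633% of all 27022: a Gja1 probe set with 67.6, 43.8 and 52.9 in wild-type and 137 and 217 in the remaining Dap12-deficient cultures (log2 difference 1.43, SE 0.26, limma adjusted p = 0.0474). That culture gave 23.6. The brightest probe set of S100b was lower in each fit without 1 array, between -1.59 without Dap12-deficient culture 1 and -0.71 without culture 3. Its dimmer probe set lay between -0.42 without Dap12-deficient culture 1 and 0.052 without culture 2. The median over the 10 genes was 0.64 without Dap12-deficient culture 2 and -0.00038 without culture 3.

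**Figure D4:**
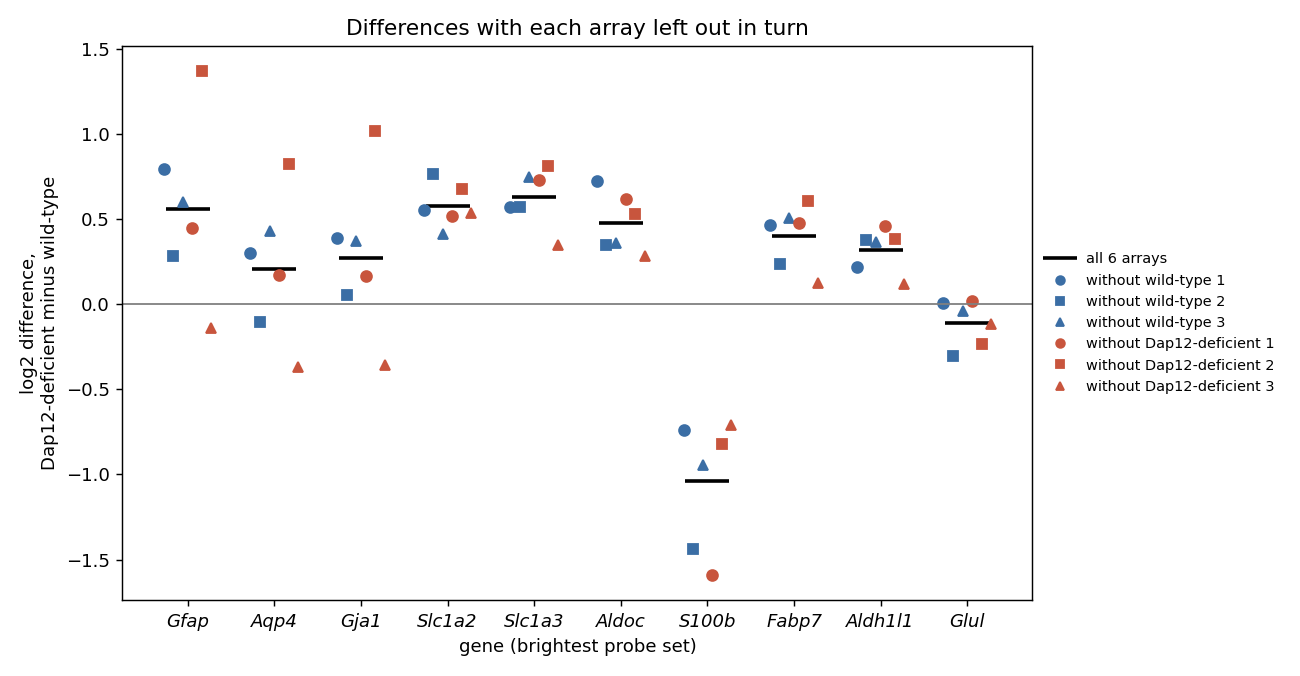
Log2 difference, Dap12-deficient minus wild-type, of the brightest probe set of each astrocyte gene with all 6 arrays (black bar) and with each array left out in turn (blue: a wild-type array, red: a Dap12-deficient array). Gfap, Aqp4 and Gja1 fall below 0 without Dap12-deficient culture 3, while Slc1a2, Slc1a3, Aldoc, Fabp7 and Aldh1l1 stay above 0 and S100b below 0 in all 6 fits.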

How the data were processed

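Each of the 6 arrays has a deposited intensity per probe set, on a linear scale. GCOS is the tool named in the submitters' processing notes; its version, algorithm and settings are not stated there. Detection calls were not analysed here. Per the labels' protocols, biotin labelling followed extraction by Trizol and RNeasy. Signals were used as scaled by the authors, and log2 was taken after adding 16. No value was shared by 2 arrays in any probe set. Array precision is limited by their number.

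The array's 45101 probe sets include 64 controls, which were dropped; 34945 of the others had 1 symbol in the platform annotation, 932 several and 9160 none. Symbols were updated through the gene table of GRCm38.p6. Probe sets with a mean signal at or above the 40th percentile were tested with limma 3.58.1 in R 4.3.3 (lmFit, eBayes with trend, two-sided), adjusted over all 27022. Steps were tested on simulated data. Plots used matplotlib 3.10.9 in Python 3.11.15.

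The genes, lists and tests were chosen with earlier results of these data known. Named were all 10 genes, Tyrobp and the genes of closest profile. Each list gave its genes with the smallest unadjusted p (4 for further astrocyte genes and glutamate handling, 2 otherwise). Mbp and the remaining microglial markers, Csf1r among them, were added after their values were seen, as were the promoter motifs. Alternatives were other pseudocounts, scalings, filters, variance settings, probe set choices, a title term and leaving out each array.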

Additional observations from a re-analysis of the deposited data

How the results depend on the processing

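The count of astrocyte probe sets past the threshold was 0 with all arrays and lay between 0 and 1 when each array was left out in turn, with the 1 found without Dap12-deficient culture 2. Over all probe sets that count was 2, against 15 without Dap12-deficient culture 1 and 171 without culture 2. The median over the 10 genes lay between -0.00038 and 0.64 with an array left out, and between 0.24 and 0.42 under the 13 other alternatives. The alternative that left out IDs ending in _s_at, _x_at or _a_at held only 7 of the genes, without Aldoc, Aldh1l1 and Glul. By their brightest probe sets, single genes changed direction only when an array was left out. Without Dap12-deficient culture 3 these were Gfap (-0.14), Aqp4 (-0.37) and Gja1 (-0.36). Aqp4 also did so without wild-type culture 2 (-0.11), and Glul without wild-type culture 1 (0.0087) or Dap12-deficient culture 1 (0.018). Over the fits without 1 array, the largest values of these 4 genes in their main direction were 1.37 (Gfap), 0.82 (Aqp4), 1.02 (Gja1) and -0.30 (Glul). No gene among the 10 passed by its brightest probe set in any alternative, with the lowest limma adjusted p, 0.145, for Gfap without Dap12-deficient culture 2. The median of the further astrocyte genes was 0.52 without that culture and 0.13 without Dap12-deficient culture 3, against 0.24. With array weights Gfap, Aqp4 and Gja1 had 0.26, 0.017 and 0.038, against 0.56, 0.21 and 0.27. No paired analysis was possible because the labels give the groups no shared replicate numbers. Signals near the dim end of the arrays, such as those of the 9 astrocyte probe sets left untested (0.332 to 17.7), have unknown background.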

Other observations

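Genes that astrocytes raise when they react to injury were described from a list of 20. Of 16 tested, 12 were higher and 4 lower, with a median log2 difference of 0.24, or 0.080 without Dap12-deficient culture 3, and none passed. The small heat shock protein gene Hspb1 gave 154, 128 and 122 in the wild-type cultures against 69.9, 100.1 and 73.9 in the Dap12-deficient ones (log2 difference -0.64, SE 0.20, limma adjusted p = 0.350), without overlap. Ptx3, a secreted pattern recognition protein, gave 12.4, 14.4 and 10.9 against 90.7, 8.37 and 62.0 (1.04, SE 0.44), with Dap12-deficient culture 2 below wild-type and cultures 1 and 3 above it. Of 4 tested gap junction genes besides Gja1, 3 were higher. Gjc3 among them had a wild-type mean of 3.45 and reached the signal minimum only through the Dap12-deficient arrays, so nothing is read from this count. Tjp1, a scaffold of tight and gap junctions, gave 697, 769 and 816 against 1006, 974 and 896 without overlap (0.33, SE 0.17, limma adjusted p = 0.536), and Gjc3 gave 4.95, 1.20 and 4.21 against 33.4, 3.24 and 5.91. The ependymal markers Foxj1 (0.16, SE 0.22) and Ccdc153 (-0.19, SE 0.29) were dim, and Foxj1 had a wild-type mean of 7.82, below the signal minimum. A further probe set that the annotation assigns to both Slc1a2 and Gm13872 was left out by the rule. It gave 8.51, 3.16 and 3.15 in the wild-type cultures against 9.05, 3.76 and 1.88 in the Dap12-deficient ones.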
